A study of Mus musculus with 16 samples.

Results

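Interferon-stimulated genes are the genes that cells switch on after interferon binds its receptor. The 36 described here are a list of gene symbols in 6 roles, from transcription factors to antigen processing. All 36 had a row among the 17370 genes of the deposited table, and 35 passed the filter on low counts, which left 15411 genes for testing. The gene that did not pass was Mx1.

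The study sequenced total RNA of the mouse quadriceps, a thigh muscle, in 4 groups of 4 biological replicates, 16 libraries in all. The mice had the anterior cruciate ligament of the knee transected and then drank either an inhibitor of the CSF1 receptor at 40 mg/kg or 0.5% sucrose, the placebo, for 7 days. The CSF1 receptor is the growth factor receptor on which macrophages depend, and the labels used here give neither the name of the inhibitor nor the strain, sex or age of the mice. Healthy placebo and injured placebo are the quadriceps labelled healthy and transected of placebo mice, and healthy inhibitor and injured inhibitor are those of treated mice. Library names put a healthy and an injured quadriceps together in 8 pairs, and each pair was taken as the limbs of 1 mouse. This reading is uncertain, because the design text of the record speaks of before and after transection while the titles say healthy and transected. The names of all healthy libraries end in L and those of all injured libraries in R, so whatever these letters mark cannot be told apart from the injury. Every p-value rests on the spread between the libraries of a group, and the main tests left the pairing out.

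Type I interferons bind a receptor whose kinases activate a complex that holds STAT2 and IRF9, and the complex binds a DNA element called the interferon-stimulated response element. Interferon gamma acts at another element, the gamma-activated site. The induced proteins sense viral RNA and DNA, block viral replication, attach the ubiquitin-like protein ISG15 to other proteins, and supply peptides to MHC class I, and macrophages and other myeloid cells express many of them strongly.

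Promoter sequences were matched to the genes to look for both of these DNA elements. RefSeq windows on GRCm38.p6, from 250 bases before to 50 bases after each gene start, were at hand for 28 of the 36 genes, in 32 windows. The interferon-stimulated response element was searched as GAAANNGAAA and the gamma-activated site as TTCNNNGAA, both strands included. Of the 32 windows, 13 (40.6%) held the first, against 3.44% of all 32851 windows, and 7 (21.9%) held the second, against 8.3%. The 6 promoters printed first are those of an extracellular and intracellular signal (Isg15), 4 antiviral genes (Oas1a, Bst2, Ifit3 and Ifit1) and the light chain of MHC class I (B2m), and all 6 hold the first element. Irf1 is shown for the second element, which Oas1a and Bst2 also hold. Each line gives the 160 bases before the RefSeq start, 5′ to 3′ on the strand of the gene, with matches to either motif in capitals. In Ifit3 and Ifit1 the matches lie on the opposite strand and are read as the reverse complement, and in Isg15, Oas1a and Bst2 neighbouring matches overlap. The positions are Isg15 chr4:156200819-156200978 (minus strand), Oas1a chr5:120907526-120907685 (minus strand), Bst2 chr8:71537473-71537632 (minus strand), Ifit3 chr19:34583369-34583528 (plus strand), Ifit1 chr19:34640729-34640888 (plus strand), B2m chr2:122147527-122147686 (plus strand), Irf1 chr11:53769854-53770013 (plus strand).
Isg15: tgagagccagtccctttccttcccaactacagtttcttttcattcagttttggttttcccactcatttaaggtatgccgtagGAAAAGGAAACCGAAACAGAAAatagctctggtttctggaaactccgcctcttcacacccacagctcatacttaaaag
Oas1a: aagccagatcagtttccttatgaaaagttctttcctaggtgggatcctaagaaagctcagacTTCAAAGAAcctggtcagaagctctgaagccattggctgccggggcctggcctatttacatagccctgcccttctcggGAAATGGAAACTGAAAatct
Bst2: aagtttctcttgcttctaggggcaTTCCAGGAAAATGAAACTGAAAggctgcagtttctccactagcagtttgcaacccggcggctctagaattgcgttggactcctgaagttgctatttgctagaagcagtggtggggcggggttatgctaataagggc
Ifit3: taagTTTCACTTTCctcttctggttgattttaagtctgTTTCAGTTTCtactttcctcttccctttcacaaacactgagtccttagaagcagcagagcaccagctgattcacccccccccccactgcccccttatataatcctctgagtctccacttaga
Ifit1: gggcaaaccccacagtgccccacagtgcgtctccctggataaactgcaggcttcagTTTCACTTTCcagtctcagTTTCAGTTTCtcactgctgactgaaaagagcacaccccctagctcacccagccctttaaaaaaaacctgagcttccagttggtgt
B2m: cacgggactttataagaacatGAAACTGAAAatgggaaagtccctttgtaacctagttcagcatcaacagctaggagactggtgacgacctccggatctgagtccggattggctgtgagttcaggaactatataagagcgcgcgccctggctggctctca
Irf1: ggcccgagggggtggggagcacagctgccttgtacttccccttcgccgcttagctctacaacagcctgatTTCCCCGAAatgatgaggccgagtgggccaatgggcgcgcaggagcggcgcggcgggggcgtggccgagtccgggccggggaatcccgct

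These matches describe the windows and do not show that a factor bound there. Among the 13 genes with a match to the interferon-stimulated response element, the median log2 difference between injured and healthy placebo quadriceps was 0.69, and among the 15 tested genes with a window and no match it was 0.62. For inhibitor against placebo in injured quadriceps the medians were -0.83 and -0.64. In a fit without 4 libraries high in Prg4, described with the library totals, the medians of the same genes were 0.27 and 0.29 in the first comparison and -0.19 and -0.068 in the second. Usp18, Oas2, Mx1, Mx2, Parp9, Parp14, Zbp1 and Dhx58 were not matched to a window.

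Library totals were 20.1 to 27.1 M counts. In bulk tissue, more cells of a type and more RNA per cell cannot be told apart. The 10 markers of skeletal muscle fibres were present in every library, but not at equal levels. All 10 were lower in injured than in healthy placebo quadriceps (median log2 difference -0.25). Under the inhibitor 9 were lower in the injured limbs and 1 was higher (median -0.22). None had an unadjusted p under 0.05 (edgeR) in these comparisons of limbs. Prg4, which encodes the lubricant of joint surfaces, reached 251, 220, 286 and 169 CPM (counts scaled to library size) in healthy placebo 4, injured placebo 2, injured placebo 3 and healthy inhibitor 1 respectively, while the remaining 12 ranged from 3.97 to 19.5 CPM. Differences refitted without these 4 libraries are given for the whole set, for each role, for the genes described library by library and for some others. Libraries high in macrophage markers are described with the scores.

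Across the 16 libraries the genes shared an order. In 25 of the 36 genes the 2 highest libraries were injured placebo 2 and 3, a pattern noticed after the values were seen, and 1792 of the 15411 tested genes (11.6%) had those same 2 libraries highest. Injured placebo 2 was the highest library of 29 genes and injured placebo 3 of 5. The exceptions were Rsad2, highest in injured placebo 1, and Usp18, highest in healthy placebo 4. In 17 of the 25 genes the next library was healthy placebo 4.

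**Figure D1:**
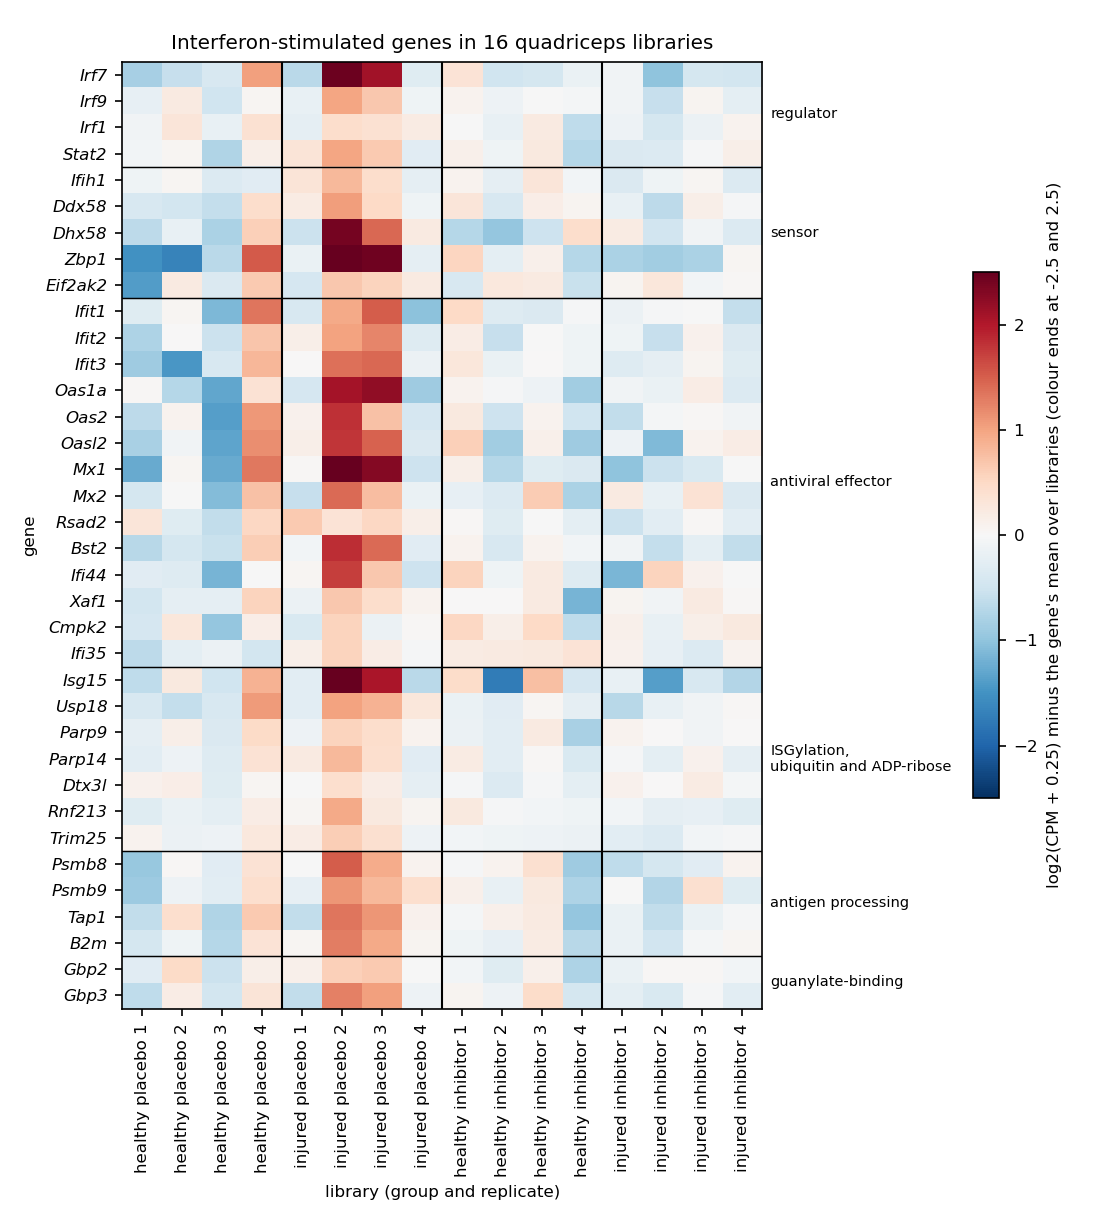
Level of each of the 36 genes (rows, grouped by role) in each of the 16 libraries (columns, by group and replicate), as log2(CPM + 0.25) minus the mean of the gene over all libraries. Injured placebo 2 and 3 are the darkest red columns, followed by healthy placebo 4, and the injured inhibitor columns are pale or blue.

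Injured was compared with healthy quadriceps in placebo mice. All 35 tested genes were higher in the injured group, by a log2 difference of 0.10 (Dtx3l) to 2.17 (Zbp1) with a median of 0.65, against a median of 0.01 over all tested genes. None passed the test: edgeR's quasi-likelihood test called no gene of the whole table at an adjusted p under 0.05 (0% of genes), and the smallest adjusted p among the 35 was 0.641. At an unadjusted p under 0.05, 16 of the 35 were higher, and 4.61% of all tested genes were higher at that level. That share also stands beside the counts of the role groups for this comparison. By the same measure, with injured and healthy limbs under the inhibitor, 9 genes were higher and 26 lower, the median was -0.11, and again 0% of all genes and none of the 35 were called (smallest adjusted p 1.0). None of the 35 had an unadjusted p under 0.05, while 0.545% of all tested genes were lower at that level.

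Inhibitor was then compared with placebo in injured quadriceps. Here 34 of the 35 genes were lower with the inhibitor, with a median log2 difference of -0.78 against -0.02 over all genes, and Cmpk2 gave 0.03. The range ran from -3.05 for Zbp1 to that value. edgeR called 0% of genes, and the smallest adjusted p among the 35 was 0.221. At an unadjusted p under 0.05, 19 of the 35 were lower, as were 9.03% of all tested genes. Counts of the role groups for this comparison have the same share beside them. This comparison and the one between limbs under placebo share the injured placebo libraries, so they are not independent.

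Between inhibitor and placebo in healthy quadriceps the set split: 15 genes were higher and 20 lower with the inhibitor, with a median of -0.03. edgeR called 0% of genes, the smallest adjusted p was 0.929, and Ifi35 alone was higher at an unadjusted p under 0.05, against 1.3% of all genes. The difference between the injury effects under inhibitor and placebo was negative for 34 of 35 genes, with a median of -0.79. edgeR called 0% of genes for it, the smallest adjusted p among the 35 was 0.998, and 6 of the 35 were lower at an unadjusted p under 0.05, against 1.38% of all tested genes. Averaged over treatments, injured limbs were higher in all 35 genes with a median of 0.28. edgeR called 0% of genes, the smallest adjusted p was 0.819, and 2 of the 35 were higher at an unadjusted p under 0.05, against 2.67% of all genes. Averaged over limbs, 33 of the 35 were lower with the inhibitor and the median was -0.36. edgeR called 45 genes of the table (0.292%), none of them in this set, whose smallest adjusted p was 0.208, and 7 of the 35 were lower at an unadjusted p under 0.05, against 9.22% of all genes. Both limbs of a mouse counted as separate libraries here, though the treatment was given to the mouse, so these p-values may be too small.

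Without the 4 libraries high in Prg4, which leaves injured placebo 1 and 4 alone in their group, 28 of the 35 genes were higher in injured than in healthy placebo quadriceps (median 0.29) and 24 were lower with the inhibitor in injured quadriceps (median -0.11). The median was -0.28 for the difference of the injury effects and 0.059 for the inhibitor averaged over limbs. In healthy quadriceps 29 of the 35 genes were then higher with the inhibitor and 6 lower (median 0.21), where the fit of all libraries had split them. Between limbs under the inhibitor 19 were higher and 16 lower (median 0.0037), and injury averaged over treatments had a median of 0.14. Without injured placebo 2 the medians for injury with placebo and for the inhibitor in injured quadriceps were 0.39 and -0.41. Without healthy placebo 4 the median for injury with placebo was 1.0. No gene of the set was called in the fits without the 4 libraries or without either of these 2 single libraries.

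Calls did appear when both limbs of placebo animal 4 were left out, a fit chosen after seeing the data. edgeR then called 15 of the 35 genes higher in injured placebo quadriceps, with 5.36% of all tested genes called higher, and 10 of the 35 lower with the inhibitor in injured quadriceps, with 3.65% of all genes called lower. The medians in that fit were 1.15 for injury with placebo and -1.23 for the difference of the injury effects. In this animal the order of the limbs was turned round, as the values within animals show.

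Within animals, the injured minus healthy difference on the log2 scale was positive in 29 of 35 genes for placebo animal 1 (median 0.38), in 35 for animal 2 (1.11) and in 35 for animal 3 (1.36). In placebo animal 4 it was positive in 3 genes and negative in 32 (median -0.47). In inhibitor animals 1 to 4 it was positive in 6, 15, 12 and 22 of the 35 genes, with medians of -0.31, -0.16, -0.12 and 0.28.

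**Figure D2:**
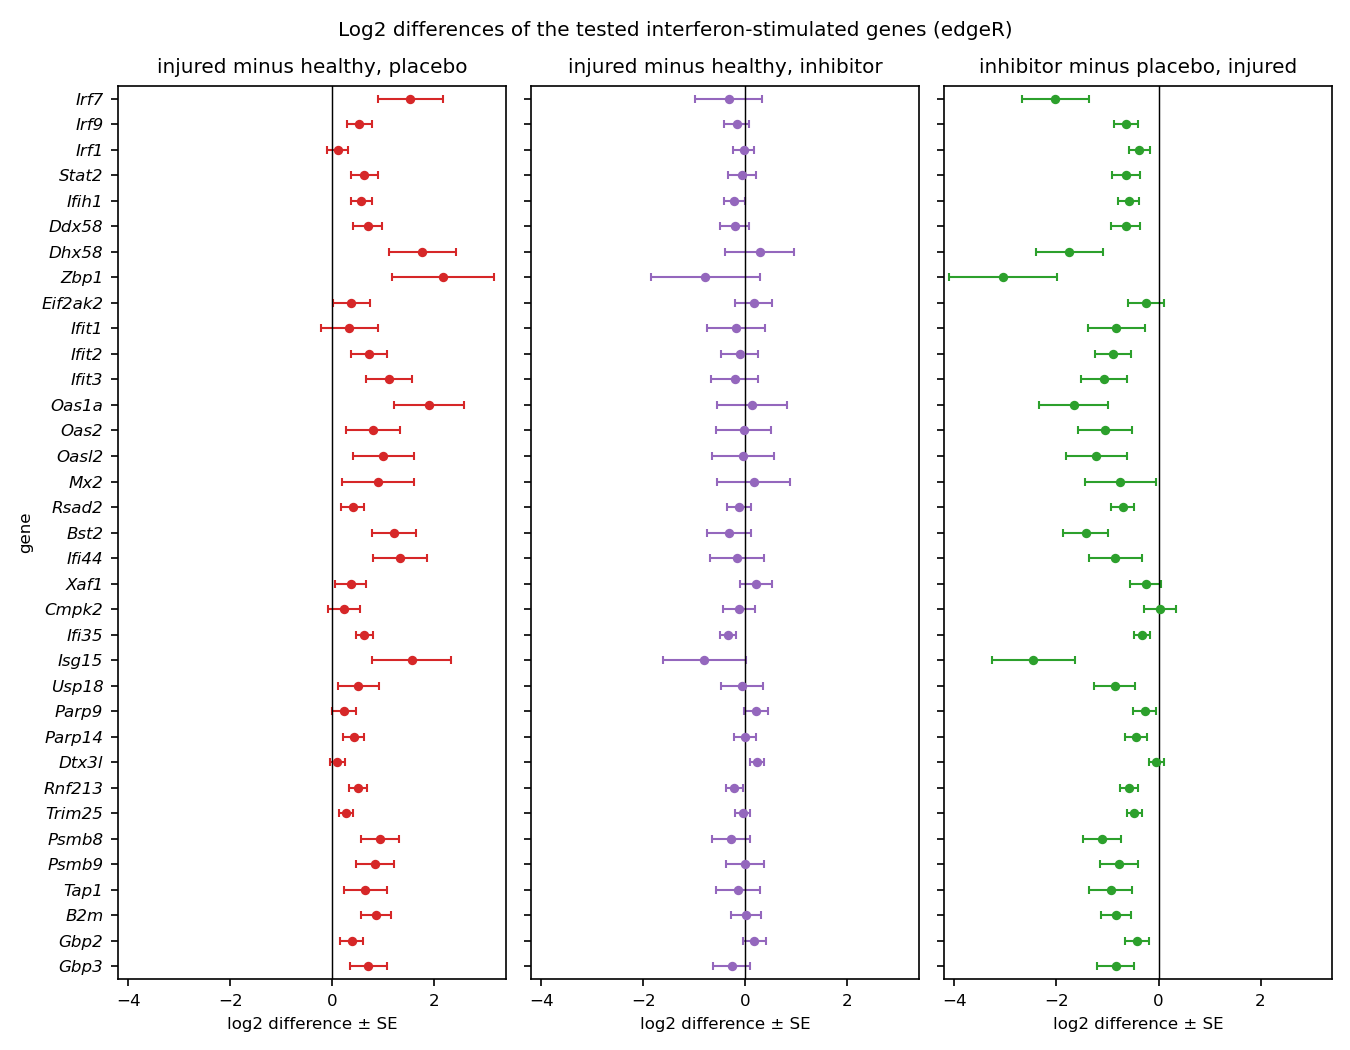
Log2 difference with its standard error (edgeR, points and bars) for each of the 35 tested genes in 3 comparisons: injured minus healthy with placebo, injured minus healthy with inhibitor, and inhibitor minus placebo in injured quadriceps. The points of the first panel lie between 0.10 and 2.17, those of the second on both sides of 0, and those of the third below 0 except Cmpk2.

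The transcription factors of the set were Irf1, Irf7, Irf9 and Stat2. All 4 were higher in injured placebo quadriceps, with a median log2 difference of 0.58, 3 of them at an unadjusted p under 0.05, and all 4 were lower with the inhibitor in injured quadriceps, with a median of -0.64. These medians were 0.047 and -0.091 without the 4 libraries high in Prg4. Irf7 (ENSMUSG00000025498, chromosome 7, 141262706 to 141266481, minus strand), the factor that amplifies type I interferon production, was at 2.49, 3.03, 3.45 and 9.66 CPM in healthy placebo 1 to 4, and at 2.82, 26.4, 20.8 and 3.69 CPM in injured placebo 1 to 4. It was at 5.95, 3.21, 3.33 and 4.13 CPM in healthy inhibitor 1 to 4 and at 4.35, 2.17, 3.35 and 3.31 CPM in injured inhibitor 1 to 4. Injured placebo 2 and 3 stood far above the rest, injured placebo 1 and 4 did not, and the groups overlapped. The log2 difference was 1.53 ± 0.64 (SE) for injury with placebo, at adjusted p = 0.641 (edgeR), and -2.02 ± 0.65 for the inhibitor in injured quadriceps, at adjusted p = 0.229. Without the 4 libraries high in Prg4 these were 0.12 and 0.021. Irf7 overlaps Phrf1 on the other strand, and the strand setting of the count is not given in the sources used here.

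Stat2 (ENSMUSG00000040033, chromosome 10, 128270559 to 128292849, plus strand), a subunit of the complex that binds the response element, had values closer together. It was at 8.02, 8.81, 4.91 and 9.39 CPM in healthy placebo 1 to 4, at 10.7, 17.1, 13.4 and 6.93 in injured placebo, at 9.29, 7.8, 10.1 and 5.08 in healthy inhibitor and at 6.55, 6.62, 8.26 and 9.42 in injured inhibitor. Injured placebo 4 lay below 3 of the healthy placebo libraries, and the groups overlapped. The log2 differences were 0.63 ± 0.27 for injury with placebo (adjusted p = 0.641, edgeR) and -0.64 ± 0.27 for the inhibitor in injured quadriceps (adjusted p = 0.290), and without the 4 libraries high in Prg4 they were 0.27 and -0.19. Irf9, the DNA-binding partner of this complex, had means of 7.11 ± 1.55 CPM (SD, n = 4) in the healthy placebo and 10.2 ± 4.19 CPM in the injured placebo group and overlaps Rnf31 on the same strand, so reads shared by both are uncertain. Irf1, induced by interferon gamma, had the smallest difference of the 4, with means of 8.0 ± 1.59 and 8.59 ± 1.71 CPM in the same groups. For injury with placebo the log2 differences of Irf9 and Irf1 were 0.53 and 0.10. Without the 4 libraries high in Prg4 they were -0.025 and -0.026, so both turned direction.

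The 5 sensors of foreign nucleic acid were Ifih1, Ddx58, Dhx58, Zbp1 and Eif2ak2. All 5 were higher in injured placebo quadriceps (median log2 difference 0.69, 4 at an unadjusted p under 0.05) and lower with the inhibitor in injured quadriceps (median -0.64, 4 at that level). The medians were 0.56 and -0.20 without the 4 libraries high in Prg4. Ifih1 (ENSMUSG00000026896, chromosome 2, 62595798 to 62646255, minus strand) encodes MDA5, a sensor of long double-stranded RNA. It was at 5.06, 5.69, 4.24 and 4.45 CPM in healthy placebo 1 to 4, at 6.93, 9.74, 7.54 and 4.66 in injured placebo, at 5.86, 4.66, 6.78 and 5.19 in healthy inhibitor and at 4.21, 5.08, 5.70 and 4.28 in injured inhibitor. Injured placebo 1, 2 and 3 lay above all healthy placebo and injured inhibitor libraries, and injured placebo 4 lay among them. The log2 difference was 0.57 ± 0.21 (adjusted p = 0.641, edgeR) for injury with placebo and -0.58 ± 0.21 (adjusted p = 0.238) for the inhibitor in injured quadriceps, against 0.21 and -0.26 without the 4 libraries high in Prg4.

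Ddx58 (ENSMUSG00000040296, chromosome 4, 40203773 to 40239828, minus strand) encodes RIG-I, the sensor of short RNA with a 5′ triphosphate. It was at 4.09, 3.89, 3.54 and 7.50 CPM in healthy placebo 1 to 4, at 6.30, 11.5, 7.82 and 5.04 in injured placebo, at 6.77, 4.09, 6.13 and 5.72 in healthy inhibitor and at 4.78, 3.39, 6.07 and 5.39 in injured inhibitor. Healthy placebo 4 stood above its group, and injured placebo 2 above all libraries. The log2 differences were 0.69 ± 0.28 for injury with placebo (adjusted p = 0.641, edgeR) and -0.64 ± 0.28 for the inhibitor in injured quadriceps (adjusted p = 0.311), against 0.56 and -0.20 without the 4 libraries high in Prg4. Zbp1, a sensor of Z-form nucleic acid that can start necroptosis, had the largest differences of the set in both comparisons, 2.17 ± 1.01 and -3.05 ± 1.06, at low levels of 0.0452 to 2.47 CPM in healthy placebo and 0.546 to 7.23 CPM in injured placebo quadriceps. Dhx58, which regulates the other RNA helicases, gave 1.76 ± 0.65 and -1.75 ± 0.65 and has an antisense gene, Dhx58os, that overlaps it. Leaving out the same 4 libraries gave 1.84 and -0.51 for Zbp1 and 0.60 and -0.054 for Dhx58. Eif2ak2, which encodes the kinase PKR that halts translation on double-stranded RNA, gave 0.37 ± 0.36 and -0.24 ± 0.36.

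Many of the 14 antiviral effectors block steps of viral entry, replication or release. Of the 13 tested, all were higher in injured placebo quadriceps (median 0.79, 5 at an unadjusted p under 0.05), and 12 were lower with the inhibitor in injured quadriceps (median -0.84, 5 at that level). When the 4 libraries high in Prg4 were left out, 11 of the 13 were higher in the first comparison (median 0.40) and 7 lower in the second (median -0.028). Bst2 (ENSMUSG00000046718, chromosome 8, 71534255 to 71537456, minus strand) encodes tetherin, which holds budding virus particles at the cell surface. It was at 3.46, 4.20, 3.83 and 8.95 CPM in healthy placebo 1 to 4, at 5.45, 21.4, 15.8 and 4.70 in injured placebo, at 6.18, 4.28, 6.09 and 5.51 in healthy inhibitor and at 5.40, 3.7, 4.83 and 3.65 in injured inhibitor. As with Irf7, injured placebo 2 and 3 stood apart and healthy placebo 4 came next. The log2 difference was 1.22 ± 0.43 for injury with placebo (adjusted p = 0.641, edgeR) and -1.43 ± 0.43 for the inhibitor in injured quadriceps (adjusted p = 0.224), and they were 0.40 and -0.20 without the 4 libraries high in Prg4. DESeq2 called Bst2 alone of the set in the second comparison, where it called 0.973% of genes lower.

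Ifi35 (ENSMUSG00000010358, chromosome 11, 101448407 to 101458698, plus strand), an interferon-induced leucine zipper protein, had its own pattern. It was at 4.24, 5.74, 6.12 and 4.89 CPM in healthy placebo 1 to 4, at 7.64, 10.2, 7.86 and 6.67 in injured placebo, at 7.91, 8.03, 8.12 and 8.73 in healthy inhibitor and at 7.41, 5.87, 5.33 and 7.25 in injured inhibitor. All injured placebo libraries lay above all healthy placebo libraries, which was so for this gene alone of the 35 and for 0.87% of all tested genes. Healthy inhibitor libraries also all lay above healthy placebo libraries, again for this gene alone of the 35 and for 0.96% of all genes, and under the inhibitor the injured libraries lay below the healthy ones without overlap, again in this gene alone and in 1.12% of all genes. The log2 differences were 0.62 ± 0.16 for injury with placebo (adjusted p = 0.641, edgeR), 0.64 ± 0.16 for the inhibitor in healthy quadriceps (adjusted p = 0.929) and -0.34 ± 0.16 for injury with inhibitor. The difference of the injury effects was -0.97 ± 0.23, with the smallest unadjusted p of the set for that comparison, 0.000661, and an adjusted p of 0.998 (edgeR). With the 4 libraries high in Prg4 left out, these 4 differences of Ifi35 were 0.41, 0.63, -0.36 and -0.77.

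Other effectors are given by their ranges. Oas1a, which makes the oligoadenylate messenger that activates RNase L, was at 0.25 to 1.32 CPM in healthy placebo and 0.42 to 5.45 CPM in injured placebo quadriceps, a log2 difference of 1.90 ± 0.69, which was -0.12 without the 4 libraries high in Prg4. Its near-identical paralog Oas1g could share reads with it, as could Ifit3b with Ifit3. Ifit3, which with Ifit1 and Ifit2 binds viral RNA, gave 1.11 ± 0.45, Ifit2 gave 0.72 ± 0.36 and Ifit1 0.33 ± 0.55, and the 3 lie near each other on chromosome 19. Leaving those libraries out gave 0.82, 0.34 and -0.35 for these 3 genes. Mx1, a GTPase that traps viral ribonucleoprotein, was not tested and had 0 counts in healthy placebo 1 and 3, where 3 counts would be 0.109 to 0.159 CPM depending on the library. Its highest level was 3.09 CPM, in injured placebo 2, against at most 1.23 CPM in healthy placebo and 0.412 CPM in either inhibitor group.

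Rsad2, which encodes viperin, an enzyme that makes a chain-terminating nucleotide, differed in which libraries were high. It ranged from 3.33 to 7.58 CPM in healthy placebo, 5.83 to 8.36 in injured placebo, 4.20 to 5.31 in healthy inhibitor and 3.54 to 5.33 in injured inhibitor quadriceps. Its injured placebo and injured inhibitor libraries did not overlap, which was so, in the lower direction, for Rsad2 and Rnf213 of the 35 genes and for 2.87% of all genes. The log2 difference for the inhibitor in injured quadriceps was -0.70 ± 0.23 (adjusted p = 0.229, edgeR), and it was -0.69 without the 4 libraries high in Prg4. Cmpk2, its neighbour on chromosome 12 and a mitochondrial nucleotide kinase, gave 0.03 ± 0.31 in the same comparison.

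The 7 genes of ISG15 conjugation, ubiquitin and ADP-ribose had a median log2 difference of 0.42 for injury with placebo (all 7 higher, 1 at an unadjusted p under 0.05) and of -0.47 for the inhibitor in injured quadriceps (all 7 lower, 3 at that level). With the 4 libraries high in Prg4 left out, 5 of the 7 were higher in the first comparison (median 0.12) and 5 lower in the second (median -0.19). Rnf213 (ENSMUSG00000070327, chromosome 11, 119393100 to 119487418, plus strand), a giant ubiquitin ligase that coats lipid droplets and intracellular bacteria, was at 22.4, 24.7, 23.5 and 31.6 CPM in healthy placebo 1 to 4 and at 28.7, 53.5, 33.0 and 29.2 in injured placebo 1 to 4. It was at 33.0, 27.1, 26.4 and 25.7 CPM in healthy inhibitor and at 26.4, 23.7, 24.1 and 22.6 CPM in injured inhibitor libraries. Every injured placebo library lay above every injured inhibitor library, and injured placebo 2 stood far above its group. The log2 differences were 0.50 ± 0.17 for injury with placebo (adjusted p = 0.641, edgeR) and -0.58 ± 0.17 for the inhibitor in injured quadriceps, where its adjusted p of 0.221 was the smallest of the set. They were 0.29 and -0.26 without the 4 libraries high in Prg4.

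Isg15 itself ranged from 0.701 to 2.43 CPM in healthy placebo, 0.672 to 8.43 in injured placebo, 0.191 to 2.22 in healthy inhibitor and 0.318 to 1.05 in injured inhibitor quadriceps. Its log2 differences were 1.56 ± 0.77 for injury with placebo and -2.45 ± 0.81 for the inhibitor in injured quadriceps. In the fit without the 4 libraries high in Prg4 these were -0.27 and -0.19, so the first turned direction. Usp18, the protease that removes ISG15 and damps receptor signalling, gave 0.51 ± 0.40 and -0.86 ± 0.41. Trim25, the ligase that acts on RIG-I, gave 0.27 ± 0.14 and -0.47 ± 0.14. The ADP-ribosyltransferase genes Parp9 and Parp14 gave 0.23 ± 0.23 and 0.42 ± 0.21 for injury with placebo, and Dtx3l, the partner ligase of PARP9, gave 0.10 ± 0.14. Without the 4 libraries high in Prg4, Parp9 gave 0.12, Parp14 gave 0.23 and Dtx3l gave -0.13, so Dtx3l turned direction. Parp9 and Dtx3l overlap on opposite strands.

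The 4 genes of antigen processing were higher in injured placebo quadriceps by a median log2 difference of 0.85, 3 at an unadjusted p under 0.05, and lower with the inhibitor in injured quadriceps by a median of -0.89, also 3 at that level. Leaving out the 4 libraries high in Prg4 gave medians of 0.42 and -0.23. B2m (ENSMUSG00000060802, chromosome 2, 122147686 to 122153083, plus strand), the light chain of MHC class I, had the highest level of the set per length, 123 CPM per kilobase of exon, and Bst2 came next at 7.44. B2m was at 72.9, 91.3, 60.1 and 125 CPM in healthy placebo 1 to 4, at 102, 239, 192 and 103 in injured placebo, at 92.0, 85.6, 113 and 60.9 in healthy inhibitor and at 87.2, 70.6, 95.6 and 102 in injured inhibitor. Only injured placebo 2 and 3 exceeded healthy placebo 4. The log2 differences were 0.86 ± 0.29 for injury with placebo (adjusted p = 0.641, edgeR) and -0.84 ± 0.29 for the inhibitor in injured quadriceps (adjusted p = 0.238), against 0.45 and -0.20 without the 4 libraries high in Prg4.

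Psmb8 (ENSMUSG00000024338, chromosome 17, 34197721 to 34201454, plus strand) encodes a catalytic subunit of the immunoproteasome, which cuts proteins into peptides for MHC class I. It was at 2.69, 5.56, 4.41 and 7.06 CPM in healthy placebo 1 to 4, at 5.36, 15.9, 10.5 and 5.79 in injured placebo, at 5.31, 5.77, 7.24 and 2.81 in healthy inhibitor and at 3.39, 3.92, 4.38 and 5.77 in injured inhibitor. Injured placebo 1 and 4 lay within the healthy placebo range. The log2 differences were 0.93 ± 0.37 for injury with placebo (adjusted p = 0.641, edgeR) and -1.10 ± 0.37 for the inhibitor in injured quadriceps (adjusted p = 0.229), against 0.40 and -0.35 without the 4 libraries high in Prg4. Psmb9, another immunoproteasome subunit, gave 0.84 ± 0.37 and -0.78 ± 0.37, and Tap1, the peptide transporter whose gene overlaps Psmb9 on the other strand, gave 0.65 ± 0.42 and -0.94 ± 0.43, or 0.0016 and -0.006 without the 4 libraries high in Prg4. The constitutive subunits that the immunoproteasome subunits replace, Psmb5, Psmb6 and Psmb7, had medians of 0.01 and -0.01 in these comparisons.

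The genes of the guanylate-binding proteins Gbp2 and Gbp3, GTPases that attack the membranes of intracellular pathogens, lie near each other on chromosome 3. Gbp3 (ENSMUSG00000028268, 142560026 to 142573209, plus strand) was at 3.11, 5.65, 3.54 and 6.26 CPM in healthy placebo 1 to 4, at 3.13, 12.3, 10.3 and 4.49 in injured placebo, at 5.17, 4.51, 6.93 and 3.6 in healthy inhibitor and at 4.11, 3.76, 4.87 and 4.07 in injured inhibitor. Its log2 differences were 0.70 ± 0.36 for injury with placebo (adjusted p = 0.641, edgeR) and -0.84 ± 0.36 for the inhibitor in injured quadriceps (adjusted p = 0.301). Without the 4 libraries high in Prg4 these were -0.11 and 0.14, so both directions turned. Gbp2 (ENSMUSG00000028270, 142620602 to 142638008, plus strand) was at 6.11, 10.4, 5.08 and 8.29 CPM in healthy placebo, at 8.18, 11.3, 11.9 and 7.43 in injured placebo, at 7.14, 6.0, 8.16 and 4.23 in healthy inhibitor and at 6.60, 7.57, 7.64 and 7.13 in injured inhibitor. Its groups overlapped, and its log2 differences were 0.38 ± 0.23 (adjusted p = 0.654, edgeR) and -0.42 ± 0.23 (adjusted p = 0.402), against 0.11 and -0.11 without the 4 libraries high in Prg4.

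**Figure D3:**
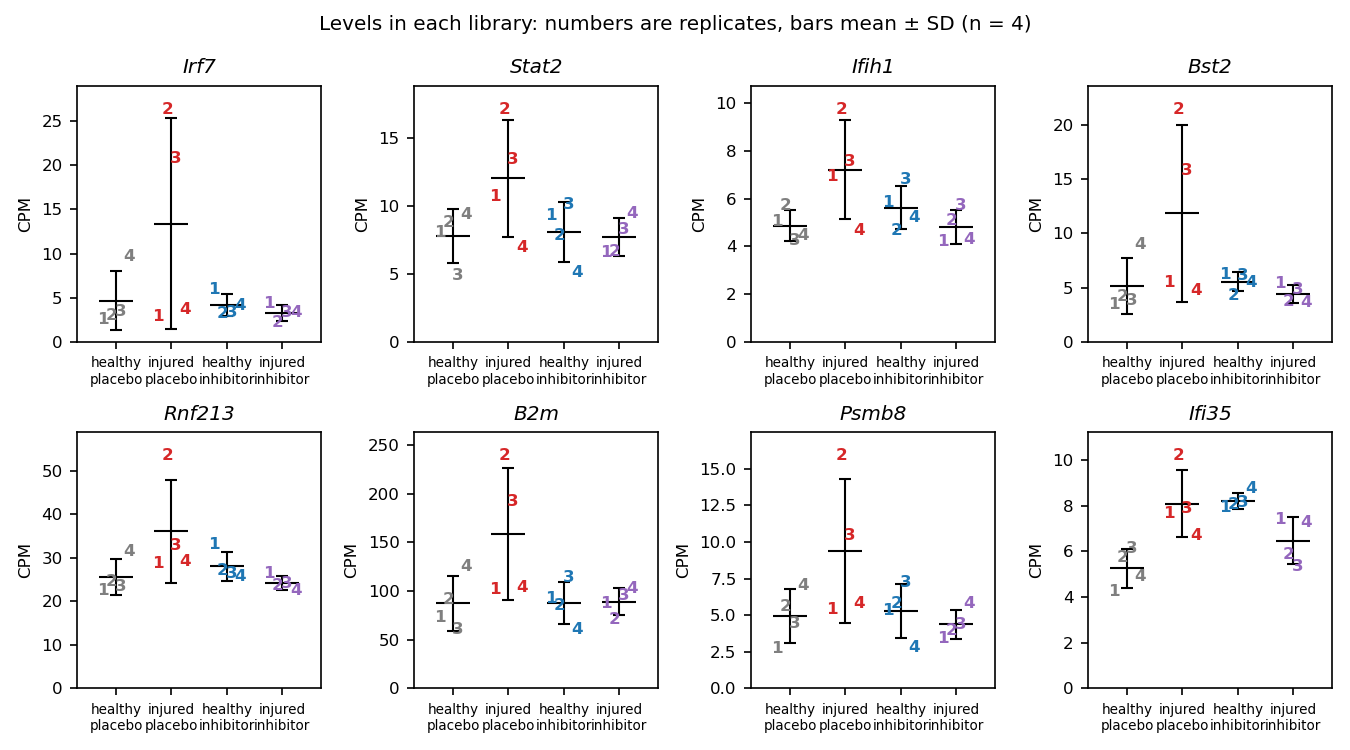
CPM of 8 of the genes in every library (linear axes from 0), with numbers for replicates 1 to 4 of each group and bars for mean ± SD (n = 4). In all 8 panels the highest point is replicate 2 of the injured placebo group, and in the Ifi35 panel the healthy inhibitor libraries lie between 7.91 and 8.73 CPM.

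A score was taken for each library as the median, over the 35 tested genes, of the log2 CPM minus the mean of the gene over the 16 libraries. It was -0.44, -0.09, -0.52 and 0.45 in healthy placebo 1 to 4 and -0.07, 1.06, 0.77 and -0.13 in injured placebo 1 to 4. It was 0.10, -0.20, 0.16 and -0.43 in healthy inhibitor and -0.12, -0.28, -0.01 and -0.06 in injured inhibitor 1 to 4. The injured inhibitor libraries were the closest together. Injured placebo 2 and 3 were the highest of the 16, and injured placebo 1 and 4 lay within the range of the healthy placebo libraries.

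The 13 macrophage markers also scored highest in injured placebo 2 and 3 and healthy placebo 4. Healthy inhibitor 3 scored 0.16 for the 35 genes but -0.60 for the markers, and injured placebo 1 scored -0.07 but 0.49. All 13 markers were in the table and tested, and all were higher in injured placebo quadriceps (median log2 difference 1.71, 3 at an unadjusted p under 0.05) and lower with the inhibitor in injured quadriceps (median -2.63, all 13 at that level). The shares of all tested genes at that level (edgeR) were 4.61% higher and 9.03% lower, beside these and the other marker lists. In healthy quadriceps 12 of the 13 were lower with the inhibitor (median -0.93, none at that level), while the median of the 35 genes was -0.03. Without the 4 libraries high in Prg4 these medians were 0.14 and 0.21. The summed level of the markers was 27.8 to 492 CPM in healthy placebo, 101 to 950 in injured placebo, 48.9 to 144 in healthy inhibitor and 53.1 to 132 in injured inhibitor quadriceps. Adgre1, which encodes the macrophage antigen F4/80, was at 30.5 and 19.5 CPM in injured placebo 2 and 3, at 13.4 in healthy placebo 4 and at 4.87 or less in every other library. Csf1r, the target of the inhibitor, was at 63.8, 60.0 and 29.9 CPM in the same 3 libraries and at 16.4 or less elsewhere. The part of these cells in the differences of the interferon-stimulated genes was not tested.

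**Figure D4:**
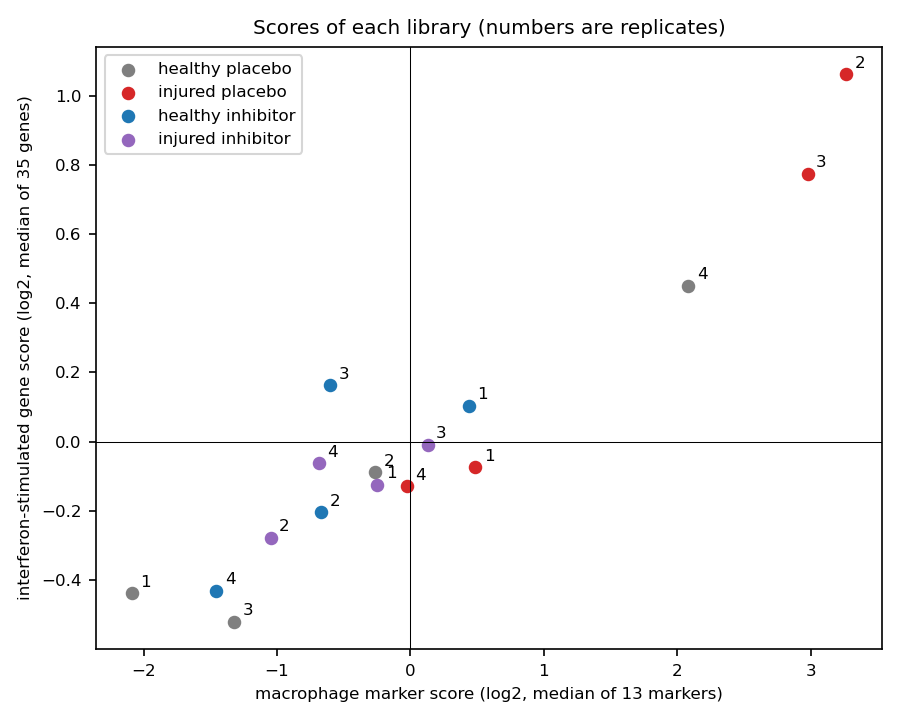
Score of the 35 interferon-stimulated genes (vertical, log2) against the score of 13 macrophage markers (horizontal, log2) for each of the 16 libraries, coloured by group and numbered by replicate. Injured placebo 2 and 3 lie at the upper right, with scores of 1.06 and 0.77, and healthy placebo 4 follows at 0.45.

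The 8 monocyte markers, all tested, were all higher in injured placebo quadriceps (median log2 difference 1.38, 2 at an unadjusted p under 0.05) and all lower with the inhibitor in injured quadriceps (median -3.00, 4 at that level). Their sum was 1040 CPM in healthy placebo 4, was 995 and 796 in injured placebo 2 and 3, was 255 in healthy inhibitor 1 and was 25.4 to 155 in the other libraries. The 7 markers of fibro-adipogenic progenitors, the connective tissue cells between muscle fibres, were also all higher in injured placebo quadriceps (median 0.50) and all lower with the inhibitor in injured quadriceps (median -0.47), none of them at an unadjusted p under 0.05. Their score, taken in the same way, was highest in injured placebo 3 (0.83), injured placebo 2 (0.64) and healthy placebo 4 (0.62), the 3 libraries with the highest interferon-stimulated gene scores. Their summed level was 552 to 1293 CPM in healthy placebo, 1089 to 1457 in injured placebo, 843 to 1290 in healthy inhibitor and 769 to 1163 in injured inhibitor quadriceps. The part of either cell type in the differences of the interferon-stimulated genes was not tested. Without the 4 libraries high in Prg4 the medians were 1.28 and -0.61 for the macrophage markers, 0.77 and -0.17 for the monocyte markers and 0.49 and -0.0051 for the progenitor markers.

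Healthy inhibitor 1, high in Prg4, had an interferon-stimulated gene score of 0.10. Of 10 T and NK cell markers 6 were in the table and 2 were tested, of 8 neutrophil markers 6 and 3, and of 5 B cell markers 1 and 1. The 3 tested neutrophil markers were all lower with the inhibitor in injured quadriceps (median -3.42). Of them, 2 were lower at an unadjusted p under 0.05 (edgeR), against 9.03% of all tested genes. In injured placebo quadriceps 2 of the 3 were higher and 1 lower (median 1.37). Without the 4 libraries high in Prg4 these medians were -1.67 and 1.22. Neutrophil markers summed to only 0.318 to 17.8 CPM, and the part of these cells was not tested. Bst2, which also marks plasmacytoid dendritic cells, was left out of their marker list because it is one of the genes described here. Of 5 listed markers of these cells, which make most type I interferon, 3 were in the table: Siglech, Tcf4 and Ccr9. These 3 summed to 42.7 to 54.7 CPM in all 16 libraries, and the part of each in the sum is not given here. Their log2 differences ran from -0.54 to 1.51 for injury with placebo (median 0.03). They ran from -1.98 to 0.49 for the inhibitor in injured quadriceps (median -0.17), where 2 were lower at an unadjusted p under 0.05 (edgeR). Of all tested genes, 9.03% were lower at that level. Without the 4 libraries high in Prg4 these medians were 0.053 and -0.15. Endothelial markers summed to 226 and 217 CPM in injured placebo 2 and 3 and to 263 to 363 in the other libraries.

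The rest of the interferon pathway was counted from lists. None of 21 interferon genes had a row in the table, so the ligands themselves were not analysed here. Of 13 tested genes of the interferon receptors and JAK-STAT signalling, 9 were higher in injured placebo quadriceps (median 0.38, 3 at an unadjusted p under 0.05) and 11 lower with the inhibitor in injured quadriceps (median -0.40, 6 at that level). Of 17 tested genes that induce interferon, 15 were higher in the first comparison (median 0.54, 4 at that level) and 14 lower in the second (median -0.41, 6 at that level). None of these was called. At an unadjusted p under 0.05 (edgeR), 4.61% of all tested genes were higher in the first comparison and 9.03% lower in the second. When the 4 libraries high in Prg4 were left out, the medians were 0.043 and -0.065 for the receptor and signalling genes and 0.016 and -0.039 for the genes that induce interferon.

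Of 65 other interferon-stimulated genes that were tested, 58 were higher in injured placebo quadriceps (median 0.53, 14 at an unadjusted p under 0.05) and 53 lower with the inhibitor in injured quadriceps (median -0.47, 26 at that level), and none was called. Over all tested genes, the shares at an unadjusted p under 0.05 (edgeR) were 4.61% higher and 9.03% lower in these comparisons. Leaving out those 4 libraries gave medians of 0.21 and -0.086. Cxcl10, an interferon-induced chemokine among them, was at 0.0779, 0.0904, 0.125 and 0.529 CPM in healthy placebo 1 to 4 and at 3.44, 2.76, 3.05 and 0.168 in injured placebo 1 to 4. It was at 0.0529 to 0.848 CPM in the 8 inhibitor libraries. Cxcl10 was thus high in injured placebo 1, where the score of the 35 genes was -0.07, as well as in injured placebo 2 and 3.

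limma-voom with quality weights, which gives libraries that scatter less a greater part in the fit, called 14 of the 35 genes lower with the inhibitor in injured quadriceps, with 4.78% of all tested genes called lower. Its lowest weights were 0.31 for injured placebo 1 and 0.38 for injured placebo 4, the libraries of that group where these genes were low.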

How the data were processed

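The authors deposited expected counts for each Ensembl gene in 16 libraries, without normalization, and 33.8% of the values were not whole. The submitters' processing notes name STAR, Partek, DESeq2 and GRCm38/mm10, and give neither their roles nor versions. Every gene reached at least 10 counts in some library. Symbols and coordinates came from GENCODE vM21 by Ensembl ID.

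After rounding, genes of low count were dropped by filterByExpr (1959 genes, at a minimum of 10). The quasi-likelihood model of edgeR 4.0.16 (R 4.3.3), in its robust form and with TMM scaling, held a mean for each of the 4 groups. Tests were two-sided and p-values were adjusted by Benjamini-Hochberg across 15411 genes, with a threshold of 0.05, and CPM are TMM-scaled. Members and lists were chosen with earlier results of these data known. Values in every library are given for the gene of each role group with the smallest unadjusted p for injury with placebo, that with the smallest for the inhibitor in injured quadriceps, and that with the highest mean CPM. The tests were also tried on simulated data.

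Library names were read as pairing the limbs of a mouse. Deviations from the group means correlated between the limbs at 0.23, -0.04, -0.01 and -0.10 in inhibitor mice 1 to 4, and at 0.47, -0.18, -0.11 and -0.53 in placebo mice 1 to 4. Alternatives were DESeq2 size factors, no low-count filter, DESeq2 1.42.0, limma-voom 3.58.1 with quality weights, a fit of the compared libraries alone, a block for animal or for replicate number, and the omission of single libraries. Fits without both limbs of an animal, and without the 4 libraries above 100 CPM of Prg4, were chosen after seeing the data.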

Additional observations from a re-analysis of the deposited data

Results flagged for a closer look

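In 56 sets of 4 libraries checked, 7 had 1 library far from the other 3 of its group. Chance marks about 1 in 20 of independent sets. These sets shared libraries, so the 7 cannot be weighed against that rate. Healthy placebo 4 was the far library for Irf7 (9.66 CPM), Bst2 (8.95 CPM), Ddx58 (7.50 CPM), the summed macrophage markers (492 CPM) and the summed monocyte markers (1040 CPM). Injured placebo 2 was the far library for Rnf213 (53.5 CPM). Healthy inhibitor 1 was the far library for the summed monocyte markers of its group (255 CPM). Healthy placebo 4, injured placebo 2 and healthy inhibitor 1 were all among the 4 libraries high in Prg4.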

How the results depend on the processing

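Counts of called genes depended on the tool and on single animals. For the inhibitor in injured quadriceps edgeR called 0 genes, DESeq2 248 and limma-voom with quality weights 1229; of the 35 interferon-stimulated genes these called 0, 1 and 14. Averaged over limbs the inhibitor gave 45 genes with edgeR, 315 with DESeq2, 121 with limma-voom and 3 without the 4 libraries high in Prg4. DESeq2 called 12 genes for the inhibitor in healthy quadriceps, 2 for injury with placebo and 1 for injury with inhibitor. The replicate number as a block gave 1 gene for the inhibitor in injured quadriceps and a median of -0.72 for the set; the animal as a block called 0 genes and gave a median of 0.62 for injury with placebo, and neither block called a gene of the set.

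When libraries or animals were left out in turn, genes called ranged from 0 to 981 for injury with placebo, 0 to 752 for the inhibitor in injured quadriceps, 0 to 6 for the inhibitor in healthy quadriceps, 0 to 164 averaged over limbs, 0 to 9 for injury averaged over treatments and 0 to 1 for the difference of the injury effects. The highest counts were without placebo animal 4, except that those of 6 and 164 were without placebo animal 1. Genes of the set called ranged from 0 to 15 and from 0 to 10 for the first 2 of these. Their median ranged from -1.0 to -0.41 for the inhibitor in injured quadriceps from -1.23 to -0.55 for the difference and from -0.53 to -0.23 averaged over limbs, the last value without placebo animal 2. Without the 4 libraries high in Prg4 these medians were -0.11 and -0.28, and that averaged over limbs was 0.059. The cause was not tested.

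Directions were counted only for injury with placebo, for the inhibitor in injured limbs and for how the injury effect differed between treatments. The inhibitor in healthy quadriceps was not counted. There 15 of the 35 genes were higher with all libraries and 29 without the 4 high in Prg4. Injury with inhibitor was not counted either, where these numbers were 9 and 19. Most fits share most of their libraries, so their values are not independent. The 11 genes given library by library were chosen in part for a small unadjusted p (edgeR) in the first 2 comparisons counted, which favours steady directions. Of their 1012 counted values, 1007 kept their direction. Over all 35 genes, the fit without the 4 libraries high in Prg4 had 7 lower for injury with placebo. It had 11 higher for the inhibitor in injured quadriceps. With all libraries these numbers were 0 and 1. Without the 4 libraries high in Prg4, Irf7 gave 0.021 and Gbp3 0.14 for the inhibitor in injured quadriceps, Gbp3 gave -0.11 for injury with placebo and Gbp2 0.12 for the difference, which ranged from -0.40 to 0.057 over the fits that left out a library or an animal, with the latter value without placebo animal 3.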
